A study of Mus musculus with 12 samples.

Results

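The 30 genes described here encode the enzymes and transporters that carry glucose through glycolysis and the pentose phosphate pathway, with the regulator Hif1a. They were taken as a named list, and each was matched to the array through the transcript accession of its probes. One probe stood for each gene, the one with the brightest mean over 12 arrays, and all 30 were among the 14701 genes tested. Every one of the 30 was well above background on all 12 arrays and none was saturated.

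The arrays measured total RNA from cultured mouse helper T cells of C57BL/6 mice aged 7 weeks. Activation through CD3 and CD28 lasted 65 hours and was followed by 48 hours in IL-2. Small RNAs were electroporated on days 1 and 4, and RNA was taken on day 5, when 24 hours had passed since the later electroporation. The Dgcr8-deficient groups were given either miR-29b or a control miRNA. The wild-type groups were given either miR-29 inhibitors or control inhibitors. Cells of 3 mice per genotype, numbered 2, 3 and 4, were used for both treatments of that genotype, which made 4 groups of 3 arrays. Dgcr8 is the RNA-binding partner of Drosha, without which most microRNAs are not made. What drove the deletion is not given in the sources used here. The controls of the genotypes also differed in the kind of oligonucleotide they received, so genotype and control oligonucleotide cannot be told apart in any comparison of one with the other.

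Activated T cells take up more glucose and turn much of it into lactate even with oxygen present, and they send part of it into the pentose phosphate pathway for NADPH and ribose. Several steps of glycolysis can be run by more than one isoenzyme, each from its own gene, and the isoenzymes differ in tissue, kinetics and regulation. Hif1a is the oxygen-regulated subunit of a transcription factor that binds many promoters of glycolytic genes.

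The microRNA supplied and its family are shown first, because the comparisons within a genotype rest on them. The mature sequences are those of RefSeq on GRCm38.p6, where mmu-miR-29b-3p is encoded at chr1:195037091-195037113 on the plus strand and again at chr6:31063025-31063047 on the minus strand. Capitals mark the seed, bases 2 to 8, which all 3 members of the family share. The sequences of the transfected molecules are not given in the sources used here.
mmu-miR-29a-3p: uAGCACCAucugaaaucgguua
mmu-miR-29b-3p: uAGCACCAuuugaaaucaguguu
mmu-miR-29c-3p: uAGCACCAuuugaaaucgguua

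Levels below are log2 signals minus the 75th percentile of the same array, so 0 is the signal at that percentile, and they are not compared between genes. Differences are log2 fold changes ± SE from one limma fit of 4 groups (n = 3 arrays per group), with p-values adjusted over 14701 genes and a threshold of 0.05. Values in a series of 3 stand in the order of mice 2, 3 and 4. The number of probes well above background was 27287 to 31405 on an array. The miR-29b array of mouse 3 had 1458 spots marked as outliers by the scanner software, against 68 to 193 on the others. Dgcr8 itself was at -0.68, -1.19 and -0.10 in Dgcr8-deficient controls and at -0.12, 1.04 and 0.24 in wild-type controls, a difference of -1.04 ± 0.38 (limma, adjusted p = 0.0777). The position of its probe against the deletion was not given, so this level does not check the labels. The median level of 4 Y-linked genes did not exceed -7.87 on either array of Dgcr8-deficient mouse 3, while the lowest such median elsewhere was -0.32.

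The genotype comparison, Dgcr8-deficient minus wild-type control cells, held most of the changes. In it 10 members fell, 4 rose and 16 did not pass the test. Those that fell were Slc2a3, Gpi1, Aldoa, Pgk1, Eno2, Eno3, Slc16a1, Pdha1, Pgd and Taldo1. Those that rose were Slc2a1, Pfkp, Ldhb and Hif1a. Of all genes tested 12.4% fell and 9.52% rose. The members' median difference was -0.49 against -0.066 over all genes. Of the 30 differences 9 were above 0 and 21 below, where 45.2% of all genes were above 0. In 16 members every Dgcr8-deficient control array lay below every wild-type control array, and in 5 the order was the opposite. Among all genes the groups were separate in this way with lower levels for 21.2% and with higher levels for 15.4%. Without the Dgcr8-deficient control of mouse 3, 8 members fell and 3 rose.

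**Figure D1:**
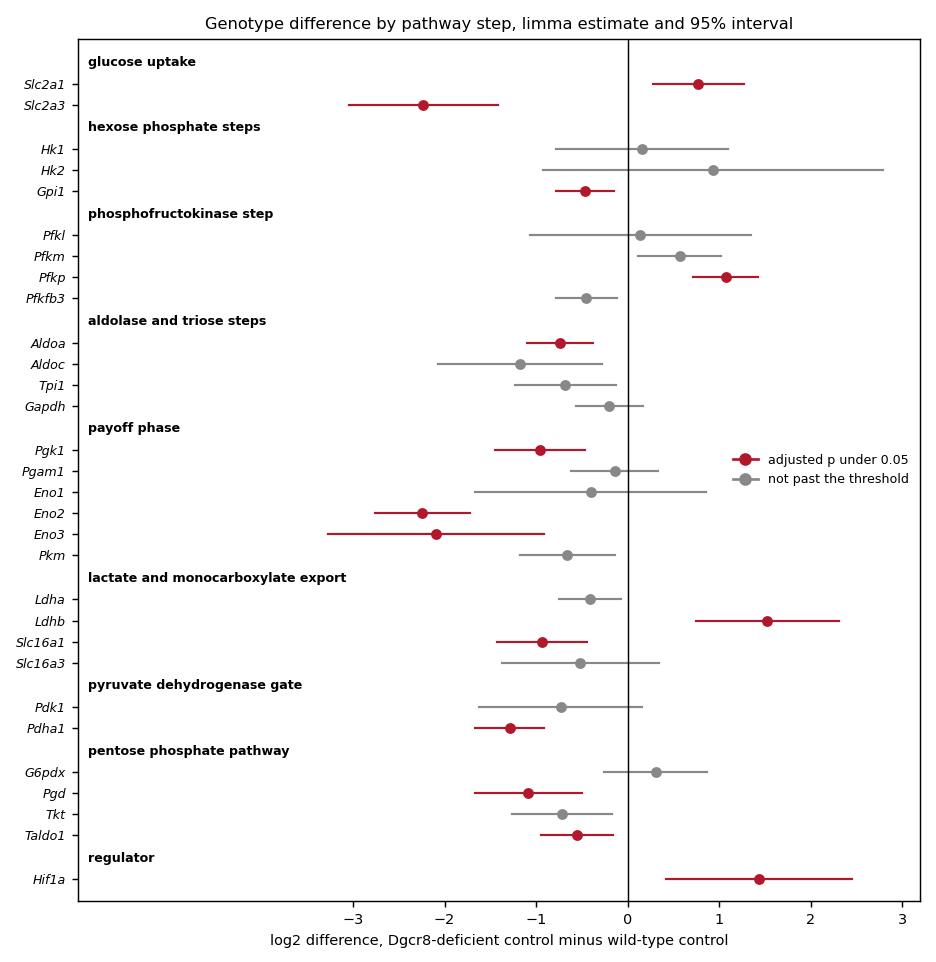
Log2 difference between Dgcr8-deficient and wild-type control cells for each member, in pathway order, with the limma estimate (point) and 95% interval (line), n = 3 arrays per group; red marks an adjusted p under 0.05. All estimates from aldolase to pyruvate kinase lie left of 0, and Slc2a1, Pfkp, Ldhb and Hif1a are the red points on the right.

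Markers of another cell type moved with this comparison. Summed over 5 B cell markers, the signal relative to the 75th percentile was 7.50 to 11.1 in Dgcr8-deficient controls and 0.298 to 0.475 in wild-type controls. Of these markers 4 were higher (Blnk, Cd79b, Ms4a1 and Cd79a), Pax5 showed 0.02 ± 0.35 (adjusted p = 0.984), and all 5 were above background in both groups. Over 9 measured helper T cell markers the sum was 266 to 310 in Dgcr8-deficient and 317 to 385 in wild-type controls, with Icos and Lck lower and Cd28 higher, and all 9 were well above background on every array. The 5 NK markers moved both ways: Klrd1 was lower by a log2 difference of -2.54 (adjusted p = 0.00569), Tyrobp higher by 2.57 (adjusted p = 0.015), and the other 3 had positive differences that did not pass, while the summed signal was 0.386 to 1.16 against 1.32 to 2.99. Of 7 myeloid and dendritic markers Adgre1 and Fcgr3 were lower, Itgax was higher, though not well above background on any wild-type control, and 4 did not pass. Their summed signal was 0.38 to 0.656 against 0.803 to 1.44. Cd8a and the 4 measured erythroid and platelet markers did not pass. Of these, Pf4 was at -8.55 to -0.22 in Dgcr8-deficient controls and above background on 0 of 3 wild-type controls. Ppbp was at -8.53 to -1.83 in Dgcr8-deficient and -8.66 to -2.97 in wild-type controls. In bulk RNA, fewer cells of a type and less RNA per cell cannot be told apart. The part of these markers' cells in the genotype differences below was not tested.

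Glucose uptake was split. Slc2a1 and Slc2a3 encode GLUT1 and GLUT3, the main facilitative glucose transporters of T cells. Slc2a3 was at 1.19, 1.70 and 0.66 in Dgcr8-deficient controls and at 0.32, 1.52 and 0.71 with miR-29b. In wild-type cells it was at 3.20, 3.10 and 3.94 with control inhibitors and at 3.44, 3.19 and 3.74 with miR-29 inhibitors. All Dgcr8-deficient arrays lay below all wild-type arrays, and among controls Slc2a3 fell by 2.23 ± 0.37 on the log2 scale (4.70-fold lower, adjusted p = 0.00169).

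Slc2a1 went the other way. It stood at 4.10, 3.86 and 3.48 in Dgcr8-deficient controls, against 2.90, 3.15 and 3.07 in wild-type controls. With miR-29b it was at 3.95, 3.34 and 3.35, and with the inhibitors at 3.04, 2.91 and 3.27. The control groups did not overlap and Slc2a1 rose by 0.77 ± 0.22 (1.71-fold, adjusted p = 0.0305). The call was lost when Dgcr8-deficient control 2 or 3, or any 1 of the wild-type controls, was left out, and the lowest value among the alternatives was 0.63.

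At the hexose phosphate steps, Gpi1 alone passed. Gpi1 encodes glucose-6-phosphate isomerase, which makes fructose 6-phosphate. It was at 6.50, 6.64 and 6.65 in Dgcr8-deficient controls and 6.88, 7.25 and 7.05 in wild-type controls, and at 6.83, 6.84 and 6.92 with miR-29b and 7.06, 7.15 and 7.09 with the inhibitors. The control groups were apart but close, and Gpi1 fell by 0.47 ± 0.14 (adjusted p = 0.0428). The call was kept in 5 of 15 alternative settings, and leaving out any control array but wild-type control 2 ended it. With quantile normalization the difference was -0.13 (adjusted p = 0.577). Hk1 and Hk2, the hexokinases that trap glucose in the cell, did not pass, and Hk2 spread widely within groups. Hk2 was at 3.78, 2.20 and 0.59 in Dgcr8-deficient controls and at 1.54, 0.80 and 1.42 in wild-type controls, with a difference of 0.94 ± 0.84 (adjusted p = 0.513). Hk1 differed by 0.15 ± 0.42 (adjusted p = 0.865).

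Phosphofructokinase, the committed step of glycolysis, has muscle, liver and platelet forms encoded by Pfkm, Pfkl and Pfkp. Pfkp was at 4.24, 3.96 and 3.95 in Dgcr8-deficient controls and at 4.19, 3.88 and 3.88 with miR-29b. Wild-type cells had 3.05, 2.99 and 2.90 with control inhibitors and 3.02, 2.84 and 3.06 with miR-29 inhibitors. The 6 arrays of each genotype formed tight, separate ranges, and Pfkp rose by 1.07 ± 0.16 among controls (2.10-fold, adjusted p = 0.000943). A second Pfkp probe gave 1.28 (adjusted p = 0.00729).

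Pfkm was at 2.98, 2.70 and 2.56 against 2.38, 1.93 and 2.21 in the controls, and its groups did not overlap, but 0.57 ± 0.20 missed the threshold (adjusted p = 0.0725). Pfkl, at 2.86, 2.69 and 1.19 against 2.32, 1.56 and 2.44, overlapped and differed by 0.14 ± 0.54 (adjusted p = 0.912). Pfkfb3 makes fructose 2,6-bisphosphate, the allosteric activator of phosphofructokinase. Its control levels of 1.33, 1.59 and 1.41 lay below 1.79, 1.87 and 2.03, and the difference of -0.45 ± 0.15 narrowly missed (adjusted p = 0.0544).

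From aldolase to pyruvate kinase every member had a negative genotype difference, 4 of them past the threshold. Aldoa, the aldolase that splits fructose 1,6-bisphosphate in most cells, was at 7.54, 7.48 and 7.37 in Dgcr8-deficient controls and 7.95, 8.38 and 8.27 in wild-type controls. It was at 7.82, 7.83 and 8.10 with miR-29b and at 8.21, 8.29 and 8.23 with the inhibitors. The control groups were apart, and the miR-29b arrays lay above the Dgcr8-deficient controls without overlap. Among controls Aldoa fell by 0.74 ± 0.16 (adjusted p = 0.00812), and its second probe gave -0.74 (adjusted p = 0.0147).

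Aldoc, the aldolase best known from brain, was at -1.11, -1.18 and -0.53 in Dgcr8-deficient controls and -0.44, 0.79 and 0.35 in wild-type controls, a difference of -1.17 ± 0.40 (adjusted p = 0.0643). Tpi1, triose phosphate isomerase, was at 5.56, 5.04 and 4.72 against 5.66, 6.05 and 5.64 and showed -0.68 ± 0.25 (adjusted p = 0.0793). In both genes the groups were apart by a narrow gap. Gapdh, which oxidises glyceraldehyde 3-phosphate and is often used as a reference gene, was at 7.23, 6.96 and 7.14 against 7.11, 7.60 and 7.21. Its control groups overlapped and it differed by -0.20 ± 0.17 (adjusted p = 0.481).

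Pgk1, phosphoglycerate kinase, makes the first ATP of the payoff phase. It was at 6.48, 6.20 and 5.92 in Dgcr8-deficient controls and at 6.20, 6.05 and 5.54 with miR-29b. In the wild type it was at 7.03, 7.12 and 7.31 with control and 7.18, 6.90 and 7.33 with miR-29 inhibitors. The genotypes did not overlap, and among controls Pgk1 fell by 0.95 ± 0.22 (1.93-fold lower, adjusted p = 0.0112), with -0.99 on a second probe (adjusted p = 0.0187). Pgk1 is X-linked, and without the Dgcr8-deficient control of mouse 3 the difference was -0.95 (adjusted p = 0.0318). Pgam1, the mutase of the next step, was at 5.76, 5.55 and 5.18 against 5.45, 5.93 and 5.52; the groups overlapped and it did not pass (-0.14 ± 0.21, adjusted p = 0.74).

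Of the 3 enolases 2 fell. Enolase makes phosphoenolpyruvate, with Eno1 as the general form, Eno2 the neuronal form and Eno3 the muscle form. Eno2 had levels of -4.12, -4.40 and -4.36 in Dgcr8-deficient controls and -2.28, -2.29 and -1.58 in wild-type controls. The groups were far apart, and Eno2 fell by 2.24 ± 0.23 (4.73-fold lower, adjusted p = 0.000121), with the smallest p-value among the 30. Its second probe gave -2.35 (adjusted p = 0.000114). The size was smaller with background corrected by normexp (-1.56), and the call held in all 15 alternative settings.

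Eno3 stood at 1.22, 1.29 and -0.12 in Dgcr8-deficient controls and at 1.69, 1.72 and 0.40 with miR-29b. Wild-type levels were 3.20, 2.31 and 3.16 with control and 3.20, 1.90 and 3.37 with miR-29 inhibitors. No Dgcr8-deficient array reached the wild-type range, and Eno3 fell by 2.09 ± 0.53 among controls (4.26-fold lower, adjusted p = 0.0174). The call was lost without Dgcr8-deficient control 4, wild-type control 2 or wild-type control 4. Eno1 was at 2.47, 2.29 and 3.53 against 2.80, 4.24 and 2.46; its groups overlapped and it differed by -0.40 ± 0.57 (adjusted p = 0.709). Pkm, the pyruvate kinase of T cells, was at 5.87, 5.72 and 5.21 against 6.19, 6.19 and 6.40, without overlap, and showed -0.66 ± 0.23 (adjusted p = 0.0699). Probe sequences were not used here, so cross-hybridisation with processed pseudogenes or near copies of these genes was not tested.

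**Figure D2:**
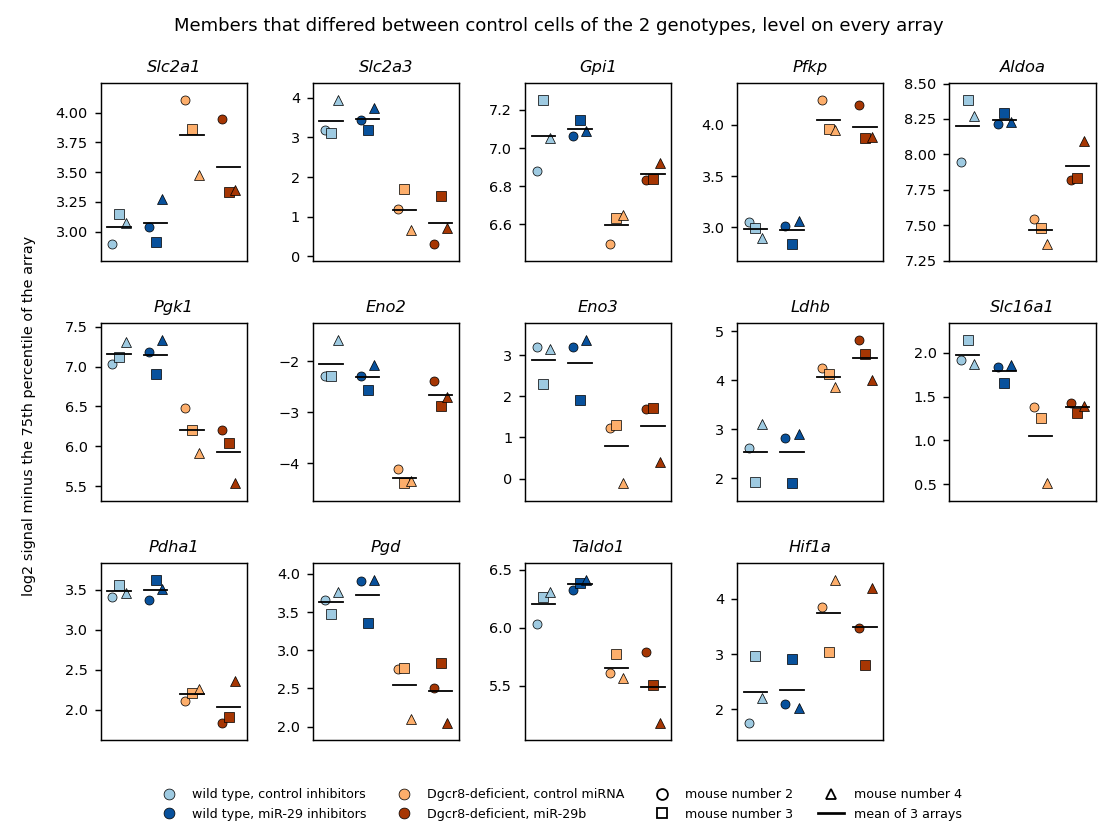
Level of each of the 14 members that differed between control cells of the genotypes, on every array (log2 signal minus the 75th percentile of the array), with the mean of 3 arrays as a line; point shapes mark mouse numbers, which name different mice in each genotype. The control groups are apart in all 14 panels, and in Eno2 the miR-29b arrays sit at -2.88 to -2.38, above the -4.40 to -4.12 of their controls.

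Lactate handling moved in both directions. Ldhb encodes the heart-type lactate dehydrogenase subunit, which favours turning lactate back to pyruvate. Its levels were 4.25, 4.12 and 3.86 in Dgcr8-deficient controls and 4.82, 4.54 and 4.01 with miR-29b. The wild type had 2.61, 1.93 and 3.10 with control and 2.83, 1.90 and 2.90 with miR-29 inhibitors. All 6 Dgcr8-deficient arrays were above all 6 wild-type arrays, and Ldhb rose by 1.53 ± 0.35 among controls (adjusted p = 0.0108). Ldha, the muscle-type subunit that favours lactate production, was at 6.80, 7.03 and 6.66 against 7.13, 7.42 and 7.18. It did not pass (-0.41 ± 0.15, adjusted p = 0.0803), although its groups did not overlap, and a second probe gave -0.62 (adjusted p = 0.261).

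Slc16a1 and Slc16a3 encode MCT1 and MCT4, which carry lactate and pyruvate across the plasma membrane with a proton. Slc16a1 was at 1.38, 1.25 and 0.51 in Dgcr8-deficient controls and at 1.43, 1.31 and 1.39 with miR-29b. It was at 1.92, 2.15 and 1.88 in wild-type controls and at 1.84, 1.66 and 1.87 with the inhibitors. The genotypes were apart, with the control of Dgcr8-deficient mouse 4 lowest, and Slc16a1 fell by 0.93 ± 0.22 among controls (adjusted p = 0.0116). Its other 2 probes gave -1.11 (adjusted p = 0.00399) and -0.77 (adjusted p = 0.111). Slc16a3 was at 3.16, 2.55 and 1.46 against 2.55, 3.16 and 3.01; the groups overlapped and it did not pass (-0.52 ± 0.39, adjusted p = 0.419).

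At the gate from pyruvate into mitochondria, Pdha1, the catalytic alpha subunit of pyruvate dehydrogenase, was at 2.11, 2.21 and 2.26 in Dgcr8-deficient controls and 3.41, 3.57 and 3.46 in wild-type controls. It was at 1.83, 1.91 and 2.36 with miR-29b and at 3.37, 3.62 and 3.51 with the inhibitors. These ranges were narrow and far apart, and Pdha1 fell by 1.29 ± 0.17 among controls (2.44-fold lower, adjusted p = 0.000471). A second probe gave -0.84 and missed the threshold (adjusted p = 0.0529). Pdha1 is X-linked too, and without the Dgcr8-deficient control of mouse 3 it differed by -1.29 (adjusted p = 0.00223). Pdk1, the kinase that switches pyruvate dehydrogenase off, was at 0.81, 1.05 and 2.04 against 1.77, 2.41 and 1.92, with overlap, and differed by -0.73 ± 0.40 (adjusted p = 0.249).

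In the pentose phosphate pathway 2 of 4 members fell. G6pdx, the X-linked gene of glucose-6-phosphate dehydrogenase, which opens the pathway, was at 3.86, 3.40 and 4.18 against 3.37, 3.84 and 3.30. It showed 0.31 ± 0.25 (adjusted p = 0.472), or 0.51 without the Dgcr8-deficient control of mouse 3 (adjusted p = 0.219). Pgd, 6-phosphogluconate dehydrogenase, makes the second NADPH. It was at 2.76, 2.77 and 2.10 in Dgcr8-deficient controls and 2.51, 2.83 and 2.04 with miR-29b, against 3.66, 3.47 and 3.76 in wild-type controls and 3.91, 3.35 and 3.92 with the inhibitors. The genotypes did not overlap, and Pgd fell by 1.09 ± 0.26 among controls (2.12-fold lower, adjusted p = 0.014). A second probe gave -1.03 (adjusted p = 0.0923). The call was lost without Dgcr8-deficient control 4 or wild-type control 4.

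Transketolase and transaldolase, encoded by Tkt and Taldo1, link the pathway back to glycolysis. Taldo1 was at 5.61, 5.77 and 5.56 in Dgcr8-deficient and 6.03, 6.26 and 6.31 in wild-type controls, and at 5.79, 5.50 and 5.17 with miR-29b and 6.33, 6.39 and 6.41 with the inhibitors. The controls were apart, and Taldo1 fell by 0.55 ± 0.18, just past the threshold (adjusted p = 0.0496). Leaving out any 1 of the 6 control arrays ended the call, and 3 of 15 alternatives kept it. Tkt was at 5.84, 5.92 and 5.33 against 6.39, 6.25 and 6.60, without overlap, and missed the threshold (-0.72 ± 0.25, adjusted p = 0.0628).

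Hif1a was at 3.85, 3.04 and 4.34 in Dgcr8-deficient controls and 1.75, 2.97 and 2.21 in wild-type controls. It was at 3.48, 2.81 and 4.19 with miR-29b and at 2.11, 2.91 and 2.03 with the inhibitors. The controls were separated by a small gap between mouse 3 of either genotype, and Hif1a rose by 1.43 ± 0.46 (2.70-fold, adjusted p = 0.0476). The call held in 8 of 15 alternatives and was lost without Dgcr8-deficient control 2 or 4 or wild-type control 2 or 4, with values of 1.14 to 1.38.

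The arrays of each genotype lay on several slides and 2 scan days, and each group had 1 array on the second day. On the 2 slides shared by the genotypes, all 14 members that passed kept their sign between control arrays. The control groups of these members did not overlap, so no pair of control arrays could have given the other sign. This count is therefore no check on slide effects. The median difference of all 30 members was -0.33 and -0.73 on these slides, and no median of all genes is given for them. With scan day as a block 5 members rose and 17 fell, against 16.1% and 23.6% of all genes. The 8 added to the 14 were Pfkm, which rose, and Pfkfb3, Aldoc, Tpi1, Pkm, Ldha, Pdk1 and Tkt, which fell.

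Several members also differed between scan days. Means of the second day minus the first were -1.61 for Hk2, -1.23 for Eno3, -1.21 for Pfkl and 1.31 for Eno1, with the same sign in all 4 groups. Hk1 (-0.97), Hif1a (0.94), Pdk1 (0.88), Aldoc (0.82) and Ldhb (-0.72) also had one sign throughout. Of the 30 members 4 (13.3%) exceeded 1 in size, against 9.33% of all genes, and the median size was 0.38 for members and 0.36 for all genes. Both arrays of Dgcr8-deficient mouse 4 and of wild-type mouse 3 made up the second day, so mouse, slide and scan day cannot be told apart in these values.

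**Figure D3:**
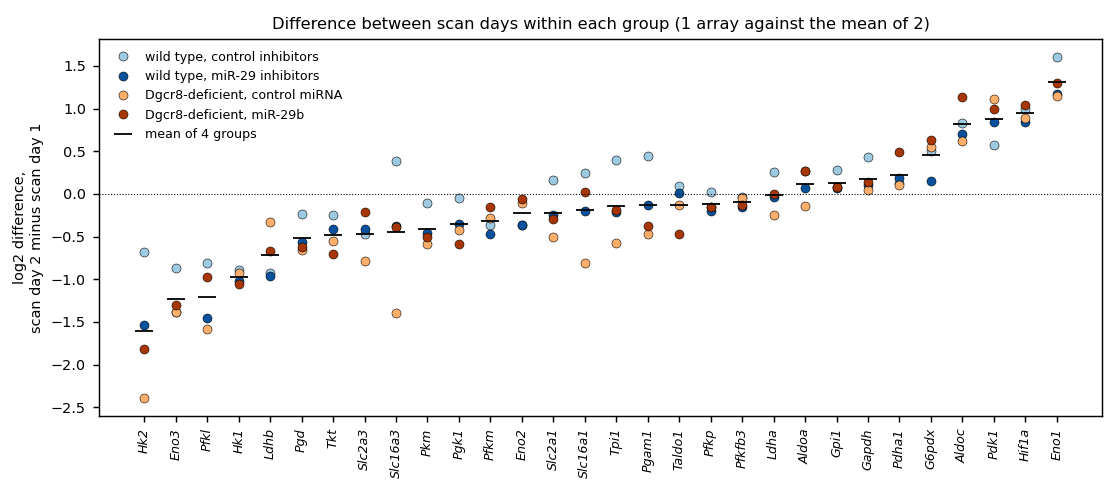
Log2 difference between the array of the second scan day and the mean of the 2 arrays of the first, within each of the 4 groups (coloured points), with the mean of the groups as a bar, for all 30 members ordered by that mean. Hk2, Eno3 and Pfkl are lowest and Eno1 and Hif1a highest, and the 4 points of each of these genes lie on one side of 0.

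The levels of the members over the 12 arrays were also set against each other. Of 435 pairs of members, 270 had a positive correlation. The highest was 0.976, between Eno3 and Tkt, and the lowest -0.975, between Pfkp and Pdha1. Eno3 and Hif1a stood at -0.954. These are descriptions over arrays that share mice, slides and the genotype split.

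The promoters of the members were searched for the letters that the HIF factors are known to bind. In the 250 bases before each RefSeq start on GRCm38.p6, the HIF core letters ACGTG or GCGTG, read on both strands, were found in 26 of 29 members with a window (89.7%), against 41.5% of 27025 genes. Slc2a3 had no window. A gene was counted if any of its windows matched. By window the shares were 79.1% of 43 in members and 38.6% of 32851 in all. The comparison was with all genes that had a window and not only with the genes tested on the arrays. ACGTG overlaps the E-box CACGTG, which 5 of the 29 members held (17.2%) against 6.86% of genes. The median number of CG pairs per window was 14 in members and 6 in all windows, so the windows also differed in base composition. Eno2, Gpi1 and Tpi1 held no match in the window. The windows of 2 members that fell (Pgk1, Slc16a1), 2 that rose (Slc2a1, Pfkp) and of Eno2 are shown to let the letters be compared. Capitals mark each match to the core on either strand. CACGTG reads the same on both strands, so it was counted as 2 matches and appears as a single stretch of capitals.
Pgk1 promoter, chrX:106186850-106187099, plus strand, 2 matches: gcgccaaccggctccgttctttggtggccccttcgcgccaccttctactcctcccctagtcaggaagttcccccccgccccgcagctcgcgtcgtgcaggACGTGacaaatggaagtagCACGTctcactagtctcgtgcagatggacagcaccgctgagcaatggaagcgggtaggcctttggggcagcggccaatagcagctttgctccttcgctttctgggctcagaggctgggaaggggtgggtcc
Slc16a1 promoter, chr3:104638414-104638663, plus strand, 4 matches: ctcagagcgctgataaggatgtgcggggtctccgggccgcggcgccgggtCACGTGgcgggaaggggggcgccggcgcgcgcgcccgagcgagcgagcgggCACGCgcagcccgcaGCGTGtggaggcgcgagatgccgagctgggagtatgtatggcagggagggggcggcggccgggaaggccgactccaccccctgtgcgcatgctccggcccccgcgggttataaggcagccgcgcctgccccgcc
Slc2a1 promoter, chr4:119108495-119108744, plus strand, 2 matches: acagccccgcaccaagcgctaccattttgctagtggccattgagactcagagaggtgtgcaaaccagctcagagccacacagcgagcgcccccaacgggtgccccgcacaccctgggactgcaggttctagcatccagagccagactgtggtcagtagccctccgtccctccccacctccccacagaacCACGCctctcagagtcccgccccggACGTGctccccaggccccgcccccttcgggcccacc
Pfkp promoter, chr13:6648772-6649021, minus strand, 3 matches: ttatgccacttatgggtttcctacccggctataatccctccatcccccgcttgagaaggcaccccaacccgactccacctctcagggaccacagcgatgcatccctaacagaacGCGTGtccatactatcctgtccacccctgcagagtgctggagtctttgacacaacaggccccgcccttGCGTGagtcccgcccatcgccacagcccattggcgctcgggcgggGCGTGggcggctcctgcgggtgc
Eno2 promoter, chr6:124769674-124769923, minus strand, no match: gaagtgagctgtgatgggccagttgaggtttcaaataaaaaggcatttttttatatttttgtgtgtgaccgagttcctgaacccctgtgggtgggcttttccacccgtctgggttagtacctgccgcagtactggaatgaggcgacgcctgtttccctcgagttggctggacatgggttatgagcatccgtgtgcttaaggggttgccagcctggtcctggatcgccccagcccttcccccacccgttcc
With 26 of 29 members holding a match, matches stood in promoters of members that rose and of members that fell. The windows of Slc2a1 and Pgk1, which moved in opposite directions, held the same number, while those of Pfkp and Slc16a1 held 3 and 4. Number of matches and direction were not compared over the members. These are descriptions of letters and not of binding.

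Other genes of the same pathways were read from companion lists. Of the 93 genes measured on 7 such lists, 8 rose (8.60%) and 17 fell (18.3%) between genotypes, against 9.52% and 12.4% of all genes. Of 16 further glycolysis and glucose uptake genes 2 rose and 2 fell between genotypes. Slc2a6, a lysosomal hexose transporter, was at 1.04, 1.54 and 1.20 in Dgcr8-deficient and -0.77, -1.14 and -0.46 in wild-type controls, a rise of 2.05 ± 0.26 (adjusted p = 0.00033). Slc2a4, the insulin-regulated GLUT4, rose by 1.92 ± 0.31 (adjusted p = 0.00153). Pfkfb4, an isoenzyme of Pfkfb3, fell by 1.45 ± 0.39 (adjusted p = 0.0211).

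Of 9 further pentose phosphate genes 1 rose and 3 fell. Tigar, a fructose bisphosphatase that diverts sugar to this pathway, was at -3.61, -3.75 and -4.38 in Dgcr8-deficient and -1.09, -1.04 and -1.08 in wild-type controls, a difference of -2.85 ± 0.34 (adjusted p = 0.000269). Pgls, 6-phosphogluconolactonase, fell by 0.98 ± 0.20 (adjusted p = 0.00564). Tktl1, a transketolase-like gene, was at -3.46, -2.29 and -2.38 in wild-type controls and well above background on 1 of the 3 Dgcr8-deficient controls. Its fitted difference of -4.71 (adjusted p = 0.00207) is therefore no measure of size.

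Of 11 further genes of pyruvate dehydrogenase and mitochondrial pyruvate import 0 rose, 5 fell and the other 6 missed the threshold; the median of their differences was -0.13. Those that fell were Mpc1, Mpc2, Dlat, Pdhx and Pdk3, the last a kinase that inhibits pyruvate dehydrogenase. Mpc2 was at 2.16, 2.29 and 2.34 in Dgcr8-deficient and 2.98, 3.27 and 3.10 in wild-type controls, with no overlap. Mpc1 and Mpc2, which form the mitochondrial pyruvate carrier, fell by 1.24 ± 0.28 (adjusted p = 0.00892) and 0.85 ± 0.16 (adjusted p = 0.00318). Dlat, the E2 subunit of pyruvate dehydrogenase, fell by 0.75 ± 0.19 (adjusted p = 0.0176).

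Among 13 gluconeogenesis and glycogen genes 1 rose and 1 fell. Pgm1, a phosphoglucomutase, rose by 1.14 ± 0.20 (adjusted p = 0.00265). Gbe1, the glycogen branching enzyme, fell by 1.06 ± 0.25 (adjusted p = 0.0129). Pygl, the liver glycogen phosphorylase, did not pass (0.67 ± 0.31, adjusted p = 0.165).

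Of 7 partners and regulators of Hif1a 2 rose and 1 fell. Epas1, which encodes HIF-2 alpha, was at 5.87, 5.38 and 5.61 in Dgcr8-deficient and 3.46, 2.74 and 3.62 in wild-type controls, a rise of 2.35 ± 0.27 (adjusted p = 0.000213). Hif1an, the asparaginyl hydroxylase that inhibits HIF, rose by 1.90 ± 0.32 (adjusted p = 0.00215), and Egln1, a prolyl hydroxylase that marks HIF for degradation, fell by 0.55 ± 0.16 (adjusted p = 0.0309). Of 17 hypoxia-induced genes outside glycolysis 1 rose and 3 fell. P4ha2, a collagen prolyl hydroxylase, rose by 2.08 ± 0.52 (adjusted p = 0.0165). Ankrd37 fell by 1.46 ± 0.23 (adjusted p = 0.00148) and Vegfa, the angiogenic growth factor, by 1.35 ± 0.35 (adjusted p = 0.0187). Of 20 Myc and mTORC1 inputs 1 rose and 2 fell. Rheb, the GTPase that activates mTORC1, rose by 0.65 ± 0.15 (adjusted p = 0.00956). Sesn1, an mTORC1 inhibitor, fell by 0.90 ± 0.23 (adjusted p = 0.0167), and Slc7a5, an importer of large neutral amino acids, fell by 1.69 ± 0.53 (adjusted p = 0.0421).

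Supplying miR-29b to Dgcr8-deficient cells changed 1 member. Eno2 was at -2.38, -2.88 and -2.70 with miR-29b and at -4.12, -4.40 and -4.36 with the control miRNA. It was higher in every mouse, by 1.74, 1.52 and 1.67, a rise of 1.64 ± 0.23 (3.12-fold, limma, adjusted p = 0.00759), where 0.884% of all genes rose. The second Eno2 probe gave 1.68 (adjusted p = 0.00859). With normexp the rise was 1.08 (adjusted p = 0.0317), and in a fit of these groups alone it did not pass (adjusted p = 0.153). Without the miR-29b array of mouse 3, which had the many outlier spots, the rise was 1.76 (adjusted p = 0.013). This comparison and the genotype comparison share the same 3 control arrays, so the higher level of Eno2 here and its lower level there are not independent. Summed helper T cell markers were 358 to 414 with miR-29b against 266 to 310 in its controls, and summed B cell markers 8.18 to 12.0 against 7.50 to 11.1. The brightest markers weigh most in such sums. Of the helper T cell markers, Icos (mean 2.69 against 3.03) and Cd3e (2.26 against 2.31) were lower with miR-29b. The means of the other measured ones were higher, and none of the 9 passed in the main fit. The part of these markers in the rise of Eno2 was not tested.

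The other 29 members did not pass, and the members' median was 0.042 against 0.068 for all genes. Of the members' differences 18 were above and 12 below 0, where 57.9% of all genes were above 0. Of the 30, 10 were higher in all 3 mice, 6 were lower in all 3 and 14 were mixed, a count not made over all genes. In 4 members (Gpi1, Pfkfb3, Aldoa and Eno2) the miR-29b arrays lay wholly above the controls and in 0 wholly below, against 8.48% and 7.36% of all genes. Pfkfb3 was at 1.96, 1.78 and 1.75 with miR-29b and 1.33, 1.59 and 1.41 without, a difference of 0.39 ± 0.15 (adjusted p = 0.259).

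With the mouse as a block, which compares the arrays of one animal, 3 members (10%) rose, a share close to the 10.5% of all genes, and 0 fell, against 10.3%. They were Eno2 (adjusted p = 0.00218), Aldoc (0.78 ± 0.14, adjusted p = 0.0161, against 0.441 without the block) and Eno3 (0.47 ± 0.13, adjusted p = 0.0478, against 0.817). Aldoc was at -0.61, -0.46 and 0.60 with miR-29b, higher than its control by 0.50, 0.72 and 1.13, and Eno3 was higher by 0.47, 0.42 and 0.52. Aldoa, higher by 0.28, 0.35 and 0.73, was at the threshold (0.45 ± 0.12, adjusted p = 0.0502 with the block and 0.212 without). A block for scan day brought Aldoa and Eno3 past the threshold (adjusted p = 0.0465 and 0.0428), and a block for slide left both just short of it (adjusted p = 0.0525 and 0.0513).

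The members lower in all 3 mice were Slc2a1, Pfkp, Pgk1, Pgam1, Eno1 and Hif1a. Pgk1 differed by -0.28, -0.16 and -0.39, and Hif1a by -0.37, -0.22 and -0.15. None of the 6 passed with or without the block, and the smallest adjusted p with the block was 0.113, for Pgk1. Of the 93 genes of the 7 companion lists 0 passed without the block, and with it 10 rose (10.8%) and 8 fell (8.60%), shares close to those of all genes, of which 10.5% rose and 10.3% fell. Among those named above, Slc2a4 rose by 1.24 ± 0.12 (adjusted p = 0.00337), Pfkfb4 by 1.06 ± 0.12 (adjusted p = 0.0043) and Pygl by 1.12 ± 0.21 (adjusted p = 0.018), while Hif1an fell by 0.49 ± 0.08 (adjusted p = 0.0127).

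**Figure D4:**
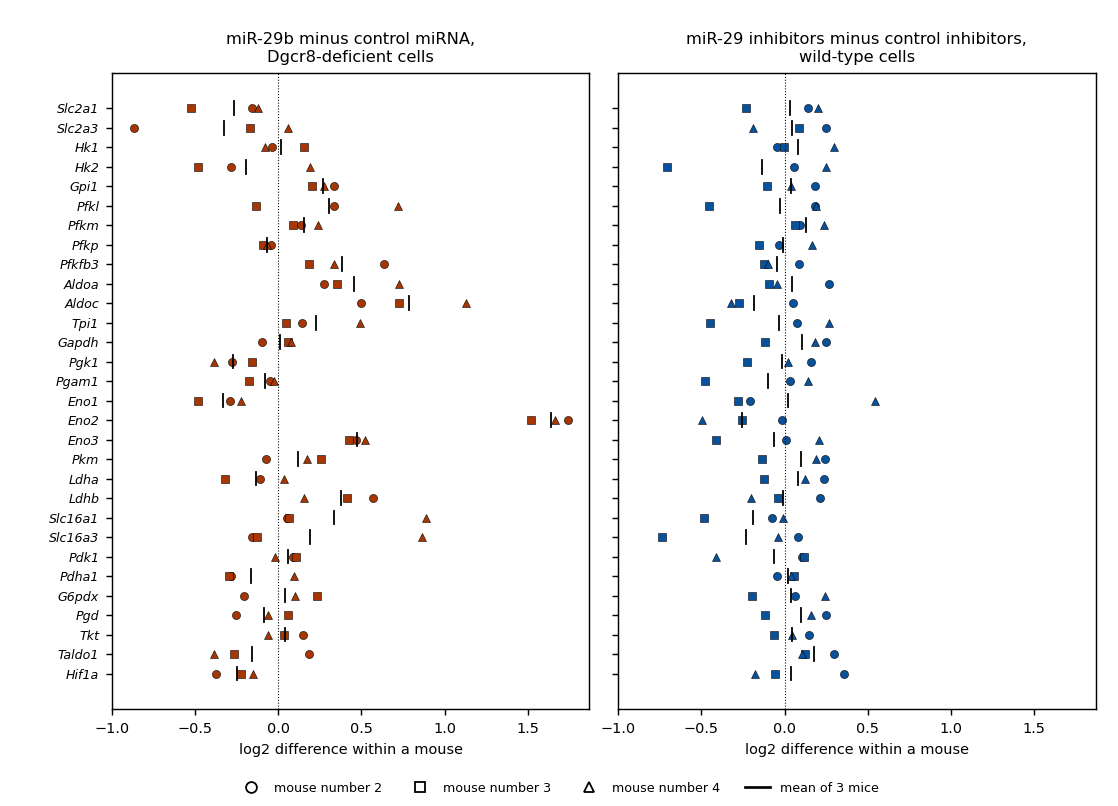
Log2 difference within each mouse for the 30 members, miR-29b minus control miRNA in Dgcr8-deficient cells (left) and miR-29 inhibitors minus control inhibitors in wild-type cells (right), with point shapes for mouse numbers and a bar for the mean of 3 mice. Eno2 on the left stands apart at 1.52 to 1.74, and on the right the points scatter around 0.

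Inhibiting miR-29 in wild-type cells brought 0 of 30 members and 0 of 14701 genes past the threshold (limma, 0% of genes). At an unadjusted p under 0.05 there were 63 genes and 0 members. With the mouse as a block there were 501 genes and 0 members, and again 0 passed the adjusted threshold. The 95% intervals come from the fit without a block and include the spread between mice. They were narrow for some members (-0.32 to 0.40 for Aldoa, -0.36 to 0.40 for Pdha1) and wide for others (-0.77 to 0.26 for Eno2, -1.99 to 1.72 for Hk2). Within mice Hk2 differed by 0.05, -0.71 and 0.25. Eno2 was at -2.29, -2.55 and -2.08 with the inhibitors and -2.28, -2.29 and -1.58 with controls, a difference of -0.26 ± 0.23. Pfkm and Taldo1 were higher and Eno2 and Slc16a1 lower in all 3 mice, and 26 members were mixed, a count not made over all genes. The members' medians within mice were 0.10, -0.13 and 0.11.

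The difference between the miR-29b and inhibitor effects was tested directly. Without a block 0 members passed, where 0.19% of all genes did, and Eno2 had the smallest p among them, with a difference of 1.90 ± 0.33 (adjusted p = 0.0556). With the mouse as a block 2 members (6.67%) passed, both in the higher direction, where 2.02% of all genes did. In either direction 877 of all 14701 genes passed, a share close to that of the members. The 2 members were Eno2 (adjusted p = 0.00871) and Aldoc (0.97 ± 0.20, adjusted p = 0.0496).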

How the data were processed

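RNA of 12 samples was hybridised to one-colour Agilent mouse arrays, 1 per sample. Per the file headers, Agilent Feature Extraction 10.5.1.1 gave the deposited spot intensity, background-subtracted and not scaled between arrays. An alternative used the authors' table of processed log2 values, made with limma per the submitters' processing notes, with its other steps not given in the sources used here. The processed signal was taken to log2, outlier spots were left out, each array's 75th percentile was taken off and the spots of a probe were averaged. Probes well above background on at least 3 of 12 arrays were kept (32200 probes, 14701 genes). Probe accessions were matched to genes through RefSeq (GRCm38.p6); 24836 of 41174 probes had a symbol.

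A single limma fit (version 3.58.1, under R 4.3.3) held all 12 arrays, p-values were adjusted by Benjamini-Hochberg, and the script was tested on simulated data. The main fit had no term for the mouse and counted all 12 arrays as independent, although each genotype had only 3 mice. The number of mice limits the precision, and genotype p-values of this fit may be too small. Fits of only the arrays compared called 2 members higher and 6 lower between genotypes, against 4 and 10 in the main fit. A block for the mouse takes out differences between animals, so its p-values rest on how treatment differences vary from animal to animal. Per the series' design, cells of each mouse received both transfections, and arrays of one mouse correlated at 0.652, 0.613 and 0.753 in Dgcr8-deficient and 0.468, 0.722 and 0.43 in wild-type cells (deviations from group means over all genes), so the mouse was used as a block in an alternative. Equal numbers across genotypes (0.239, -0.326 and -0.353) were not pairs. Both arrays of a mouse lay on the same slide and were scanned on the same day. The correlations within a mouse therefore cannot tell the mouse from the slide or the scan day. Other alternatives were slide, scan day, quantile normalization, normexp (offset 50, on median signals, which the scanner files hold in place of mean signals), the filter, the mean of probes, the samples fitted and each array left out. Values on every array are given for members past the threshold or with an unadjusted p under 0.05, and for a member of each step; of each companion list the 3 genes with the smallest p are named. The members and lists were chosen with earlier results of these data known. One marker gene of the B cell list is not reported here and was left out of its sums and counts.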

Additional observations from a re-analysis of the deposited data

Results flagged for a closer look

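Of the 30 members, 2 had effects of miR-29b and of the miR-29 inhibitors that differed by a test of the difference itself with the mouse as a block (limma). For Eno2 the difference of effects was 1.90 on the log2 scale (adjusted p = 0.00871; 0.0556 without the block), from 1.64 in Dgcr8-deficient and -0.26 in wild-type cells. For Aldoc it was 0.97 (adjusted p = 0.0496; 0.917 without the block), from 0.78 and -0.18. Among the named genes of the companion lists it was 1.07 for Slc2a4 (adjusted p = 0.0282), 1.01 for Pfkfb4 (adjusted p = 0.0282), 1.76 for Pygl (adjusted p = 0.0303) and 1.38 for Vegfa (adjusted p = 0.0408). It was -1.11 for Epas1 (adjusted p = 0.0292) and -0.58 for Hif1an (adjusted p = 0.0457). Pygl was higher with miR-29b in all 3 Dgcr8-deficient mice (1.54, 0.45 and 1.36) and lower with the inhibitors in all 3 wild-type mice (-0.45, -0.73 and -0.75), and Epas1 was lower with miR-29b (-0.69, -0.38 and -0.11) and higher with the inhibitors (0.70, 0.88 and 0.58). Without the block none of these 8 genes passed. With it 297 of all 14701 genes passed in the higher and 580 in the lower direction. Taken in either direction, the share of members that passed was close to that of all genes. Of the 93 companion genes 4 (4.30%) passed in the higher and 3 (3.23%) in the lower direction. Genotype and treatment differ together in this comparison and cannot be told apart.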

How the results depend on the processing

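Arrays of one mouse are paired within a genotype. The replicate block took the genes past the threshold for miR-29b from 336 to 3052 and for the difference of effects from 28 to 877, with 3 and 2 members among them, and it changed no call of a member beyond those of Eno2, Aldoc and Eno3 given above. With slide as a block the genes were 2466 for miR-29b, 6130 for genotype and 617 for the difference, with 2, 22 and 2 members. With scan day as a block they were 1840, 5836 and 446, with 4, 22 and 1 members. The authors' log2 values gave 571 genes for miR-29b and 92 for the difference. Probes above background on all arrays gave 62 genes and 1 member for the difference, and the mean of all probes 14 genes. Fits of only the arrays compared gave 0 genes and 0 members for miR-29b and 8 members for genotype. The genotype median of the members was -0.36 with quantile normalization, and -0.33 and -0.73 within slides. Normexp moved the genotype median of all genes from -0.066 to -0.22, and the members' median was then -0.45. Leaving out 1 array gave 103 to 276 genes (276 without the miR-29b array of mouse 3), 1 member and a members' median of -0.033 to 0.22 for miR-29b, 8 to 11 members for genotype, and 3 to 51 genes (51 without that array) and a median of -0.082 to 0.17 for the difference. The fewest genotype members came without wild-type control 4 (8) and Dgcr8-deficient control 4 (9). A group left with 2 arrays shares the spread of all groups. No member past the threshold changed sign in any of these settings. The groups of members past it in the main fit did not overlap. Leaving out 1 array, fitting only the arrays compared, or pairing control arrays by slide could therefore not have changed their sign. The causes were not tested.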

Other observations

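The median of the 30 members on each array, after centring each gene, was lowest on the control array of Dgcr8-deficient mouse 4 (-0.45) and highest on the control array of wild-type mouse 3 (0.36). Those arrays shared a slide. The genes of the whole table whose levels followed this median most closely over the 12 arrays were Mri1 (Pearson r = 0.974), Cyb561d2 (0.973), Cox17 (0.969), Pkp3 (0.966) and Rabepk (0.964). This is a description over arrays that share mice and the genotype split.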
